A study of Mus musculus with 14 samples.

Results

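Lif (leukemia inhibitory factor) and 5 further genes of the gp130 cytokine pathway, Osm, Il6st, Il6ra, Ebi3 and Stat3, were followed in Th1 cells in which the microRNA miR-31 had been inhibited. They make 6 of 18193 genes that the array annotation names by a single symbol, and they are read by 14 of its 34945 probe sets, which are groups of oligonucleotides that together measure 1 transcript. The genes were selected on their family and on measured values of this series, since the difference of Lif between treatments at 72 h was already known. For these 6 genes the 72 h comparison is therefore a description with no test, whereas 36 h and 48 h were tested.

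The cells were Th1 rep cells, that is T helper cells of the IFN-γ producing lineage that had been activated repeatedly in culture. All groups started from naive CD4+ cells of OT-II mice, whose T cell receptor transgene recognises an ovalbumin peptide, aged 6 to 10 weeks, and all were grown with irradiated antigen presenting cells, IL-12, an antibody to IL-4 and, from the second stimulation, IL-2. The cells then received 1 µM of Antagomir-31, a cholesterol-coupled oligonucleotide against miR-31, or 1 µM of Antagomir-SCR, its unspecific control, were reactivated through CD3 and CD28, and RNA was taken 36, 48 and 72 h after treatment. There were 2 arrays of Antagomir-31 and 2 of Antagomir-SCR at 36 h, 2 and 2 at 48 h, and 3 and 3 at 72 h, on an Affymetrix mouse array of whole-culture RNA. The sources used here do not say whether replicates were separate cultures or mice, so a p-value here reflects array-to-array spread, which may be technical. The number of arrays limits the precision, and in such bulk RNA fewer cells that make a transcript and less transcript per cell cannot be told apart.

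As background, gp130, the product of Il6st, is the signalling chain shared by the IL-6 family of cytokines. LIF and oncostatin M (Osm) bind gp130 together with a second chain, LIF receptor or OSM receptor, and IL-6 binds it through the IL-6 receptor alpha chain (Il6ra). Ebi3 is the subunit that pairs with p28 to form IL-27, which uses gp130, and with p35 to form IL-35. Engaged receptors activate JAK kinases, which phosphorylate STAT3, and STAT3 in turn switches on genes such as Socs3 that dampen the signal. In T cells, IL-6 and STAT3 are known for Th17 and follicular helper differentiation, and LIF is known as a cytokine that activated T cells themselves secrete.

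The inhibited microRNA and the promoter of the gene with the largest difference are shown so that the agent and the locus can be read directly. Mature miR-31 lies on the minus strand at chr4:88910614-88910635 of GRCm38.p6 (RefSeq), and the capitals mark its seed, bases 2 to 8, the stretch that chiefly decides which transcripts a microRNA pairs with.
mmu-miR-31-5p: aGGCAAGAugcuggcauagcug
Lif promoter: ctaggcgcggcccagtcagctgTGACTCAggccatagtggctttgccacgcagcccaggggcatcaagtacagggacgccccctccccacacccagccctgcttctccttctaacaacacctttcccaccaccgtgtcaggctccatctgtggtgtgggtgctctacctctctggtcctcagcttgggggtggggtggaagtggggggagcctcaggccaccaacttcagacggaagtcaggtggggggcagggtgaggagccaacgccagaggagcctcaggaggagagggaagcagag

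The Lif promoter is the plus strand of chr11:4257318-4257617, 250 bases before and 50 after the start of the gene. RefSeq promoters of this kind were at hand for 5 of the 6 genes, Osm being the exception, and 6 motifs were searched in them on both strands: the STAT palindrome TTCNNNGAA, the AP-1 motif TGANTCA, the CRE motif TGACGTCA, the FOXO motif GTAAACA, the NFAT core GGAAAA and the TATA box TATAAA. The only match in the 5 windows was 1 AP-1 motif in the Lif promoter, beginning 228 bases before the start and set in capitals above. Of 32851 promoters of the same length, 7.81% hold an AP-1 motif, 8.3% the STAT palindrome, 1.79% the CRE motif, 3.65% the FOXO motif, 23.4% the NFAT core and 13.6% a TATA box. The match is a description of these letters and does not show that a factor binds there.

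The labelled cell type was checked on marker genes. All 12 markers of T cells and the Th1 lineage lay above the median probe set, among them Cd3d (mean intensity 5163 with Antagomir-31 and 5485 with Antagomir-SCR at 72 h) and Ifng (8382 with Antagomir-31 and 8580 with Antagomir-SCR), whereas B cell markers did so in 1 of 6 cases, macrophage markers in 4 of 8, dendritic cell markers in 4 of 7, neutrophil markers in 2 of 6, CD8 T and NK cell markers in 2 of 5, markers of Treg, Th2 and Th17 cells in 4 of 7 and stromal markers in 0 of 6. No marker passed the test at any time. The markers furthest above the median outside the Th1 list included H2-DMb2, with a mean of 249 for Antagomir-31 and 274 for Antagomir-SCR at 72 h. At 72 h some array-wide measures moved with treatment. The upper quartile of intensity lay between 129 and 130.01 on the Antagomir-31 arrays, against 131 and 133 on those of Antagomir-SCR. The summed Th1 markers lay between 24160 and 24728 for Antagomir-31, against 24975 and 25447 for Antagomir-SCR, and the summed dendritic cell markers between 419.8 and 426 for Antagomir-31, against 439.9 and 479 for Antagomir-SCR, with H2-DMb2 making up most of that sum. The other lists whose sums did not overlap were higher for Antagomir-31. Macrophage and monocyte markers summed to between 264 and 271 for Antagomir-31, against 255 and 262 for Antagomir-SCR, and markers of Treg, Th2 and Th17 cells to between 282 and 294 for Antagomir-31, against 249 and 279.5 for Antagomir-SCR. The sums of the B cell, neutrophil, CD8 T and NK cell and stromal lists overlapped. The 3′ actin probe set exceeded the 5′ one, a sign of RNA integrity, by 0.213 to 0.267 on the log2 scale for Antagomir-31 and by 0.211 to 0.235 for Antagomir-SCR, which overlapped. Their part in the results was not tested, and the median log2 difference of all probe sets at 72 h was -0.0088.

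Of the 14 probe sets, 11 lay above the median and were tested, at least 1 for each of the 6 genes. At 36 h none of the 11 passed the test (limma with Benjamini-Hochberg adjustment over 22518 probe sets, threshold 0.05), against 0.0% of all probe sets tested, although 2 of them and 1149 of all had an unadjusted p under 0.05. At 48 h none of the 11 passed, against 0.0% of all, and 0 of them and 1348 of all had an unadjusted p under 0.05. At 72 h 0.289% of all probe sets were past the threshold, 26 of them higher and 39 lower with Antagomir-31 (35 higher and 30 lower after quantile normalisation, 18 and 42 after median centring), and 3664 of all (16.3%) had an unadjusted p under 0.05. The 1 of the 11 past the threshold at 72 h is the Lif probe set chosen by this same difference, so the count is a description and nothing is read from it. The arrays of the treatments did not overlap in 6 of the 11 at 36 h (29.0% of all), in 3 at 48 h (32.4% of all) and in 5 at 72 h (22.9% of all).

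**Figure D1:**
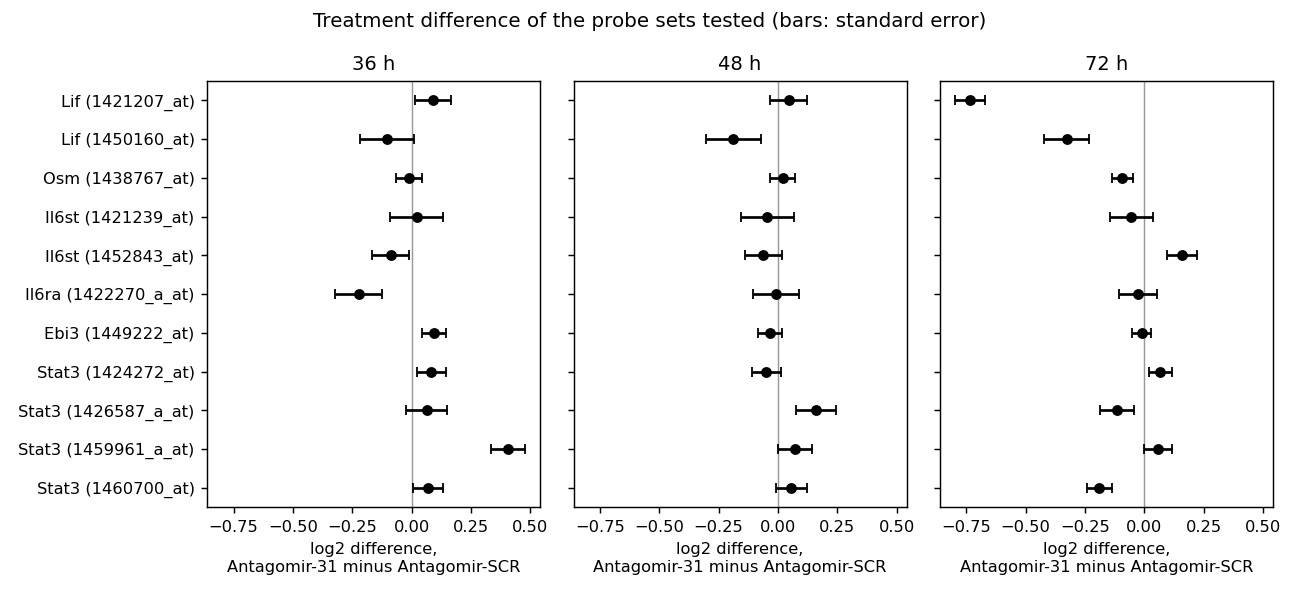
Log2 difference of intensity, Antagomir-31 minus Antagomir-SCR, of the 11 probe sets tested (rows, gene and probe set) at 36, 48 and 72 h (panels); points are limma estimates and bars 1 standard error. At 72 h Lif 1421207_at lies at -0.73 and Lif 1450160_at at -0.33, and the other 9 lie between -0.19 and 0.16.

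Lif was lower with Antagomir-31 at 72 h and close between treatments at 36 and 48 h. On probe set 1421207_at the 72 h arrays had intensities of 151, 137 and 143 with Antagomir-31, against 225, 248 and 244 with Antagomir-SCR. Every Antagomir-31 array was below every Antagomir-SCR array, with means of 144 ± 6.80 and 239 ± 12.3 (SD, n = 3 each), a ratio of 0.601. The log2 difference of -0.73 (SE 0.063) was the third lowest of the 22518 probe sets tested. Only quantile normalisation, median centring and the omission of a 72 h array could alter it, and with these it ranged from -0.78 to -0.70. The rest of the 23 alternative settings keep the 72 h means of this probe set, so they give the same difference by design.

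At the earlier times the same probe set differed by about a standard error or less. At 36 h it read 198 and 187 with Antagomir-31, against 184 and 178 with Antagomir-SCR. These arrays did not overlap, with both Antagomir-31 arrays higher, but the log2 difference of 0.09 (SE 0.078) was not past the threshold (limma, adjusted p = 1.0). At 48 h it read 173 and 171 with Antagomir-31, between the 155 and 180 of Antagomir-SCR (0.04, SE 0.078, limma, adjusted p = 1.0). The 72 h difference lay 0.82 below that at 36 h and 0.78 below that at 48 h on the log2 scale (SE 0.10 each), which is a description because it holds the 72 h values.

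The other Lif probe set, 1450160_at, differed less. It read 50.5, 49.9 and 53.8 with Antagomir-31 at 72 h, against 76.2, 63.1 and 55.8 with Antagomir-SCR. The treatments again did not overlap, but the highest Antagomir-31 array and the lowest Antagomir-SCR array were close together. The log2 difference was -0.33 (SE 0.093), and -0.21 without Antagomir-SCR replicate 2, the brightest array. At 36 h it read 49.4 and 46.9 with Antagomir-31, against 52.2 and 51.3 with Antagomir-SCR. At 48 h it read 39.1 and 42.8 with Antagomir-31, against 49.2 and 44.2 with Antagomir-SCR. Here the Antagomir-31 arrays were below the Antagomir-SCR arrays at both times, with log2 differences of -0.10 and -0.19 (SE 0.11 each) that were not past the threshold (limma, adjusted p = 1.0 and 0.904). The Lif probe sets thus had opposite signs at 36 and 48 h and the same sign at 72 h. Over the 14 arrays, with each time point centred on its own mean, their log2 values correlated at r = 0.55, a description over arrays that share treatment and time.

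**Figure D2:**
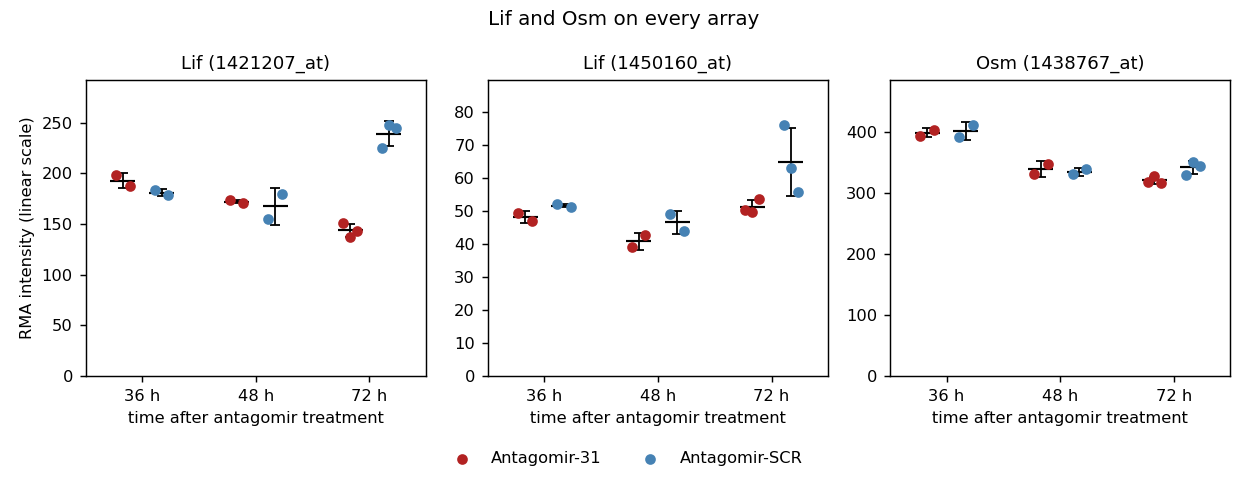
Intensity (linear scale, from 0) of the Lif probe sets 1421207_at and 1450160_at and the Osm probe set 1438767_at on each array (points) at 36, 48 and 72 h, Antagomir-31 in red and Antagomir-SCR in blue; horizontal lines are means and bars 1 SD. On 1421207_at the 72 h arrays lie at 137 to 151 with Antagomir-31 and at 225 to 248 with Antagomir-SCR.

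Osm, whose product is the cytokine of the family closest to LIF and whose gene neighbours Lif in the RefSeq annotation, lay at percentiles 85.2 to 89.3 of the probe sets of its array and differed less. At 72 h its probe set 1438767_at read 318, 327 and 317 with Antagomir-31, against 330.3, 351 and 344 with Antagomir-SCR. All Antagomir-31 arrays were lower, and the log2 difference was -0.09 (SE 0.044). At 36 h it read 394 and 404 with Antagomir-31, against 391 and 412 with Antagomir-SCR, and at 48 h 330.4 and 348 with Antagomir-31, against 330.3 and 339 with Antagomir-SCR. The treatments overlapped at both times, with log2 differences of -0.01 and 0.02 (SE 0.054 each; limma, adjusted p = 1.0 at both). Time-centred over the 14 arrays, Osm correlated with Lif 1421207_at at r = 0.72. That correlation is a description, since it holds the 72 h treatment difference on which Lif was chosen.

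Ebi3, the IL-27 and IL-35 subunit, had similar intensities with both treatments. It read 326, 328 and 328 with Antagomir-31 at 72 h, against 323, 339 and 329 with Antagomir-SCR, a log2 difference of -0.01 (SE 0.041). The sign turned in 2 of 23 alternatives, most of which cannot alter a 72 h difference. At 36 h the Antagomir-31 arrays, at 238 and 230.1, were above the Antagomir-SCR arrays, at 218 and 221, by 0.09 (SE 0.05; limma, adjusted p = 1.0). At 48 h they read 246 and 239 with Antagomir-31, against 253 and 243 with Antagomir-SCR, and overlapped (-0.03, SE 0.05; limma, adjusted p = 1.0).

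Of the receptor genes, Il6st lay near the array median at the early times on its tested probe sets and below it on the others. The Il6st probe sets did not move together. Probe set 1452843_at read 51.9, 51.9 and 49.9 with Antagomir-31 at 72 h, against 49.6, 46.5 and 41.8 with Antagomir-SCR. All Antagomir-31 arrays were higher, by 0.16 on the log2 scale (SE 0.064). Probe set 1421239_at read 34.9, 36.9 and 38.9 with Antagomir-31, against 39.4, 40.3 and 35.3 with Antagomir-SCR, and overlapped (-0.05, SE 0.091). The other Il6st probe sets, 1437303_at and 1460295_s_at, had a mean log2 intensity over the 14 arrays below the limit for testing and were not tested. At 72 h 1437303_at read 30.1, 29.7 and 37.1 with Antagomir-31 and 30.8, 28.3 and 22.3 with Antagomir-SCR. Probe set 1460295_s_at averaged 8.48 with Antagomir-31 and 8.98 with Antagomir-SCR. The tested pair differed by 0.02 and -0.09 at 36 h and by -0.05 and -0.06 at 48 h (limma, adjusted p = 1.0 in each case).

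Il6ra, which binds IL-6 itself, overlapped between treatments at 72 h. Probe set 1422270_a_at read 64.3, 52.3 and 51.3 with Antagomir-31 and 55.0, 61.4 and 54.2 with Antagomir-SCR, a log2 difference of -0.03 (SE 0.08). At 36 h both Antagomir-31 arrays, at 20.6 and 21.8, were below the Antagomir-SCR arrays, at 24.4 and 25.04. That log2 difference of -0.22 (SE 0.098) had an unadjusted p of 0.041 and an adjusted p of 0.969 in limma. At 48 h the groups read 27.7 and 27.6 with Antagomir-31 and 27.2 and 28.5 with Antagomir-SCR (-0.01, limma, adjusted p = 1.0). The other Il6ra probe set, 1452416_at, read between 7.67 and 15.7 on all arrays and was not tested.

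Stat3, which encodes the transcription factor that gp130 activates, is read by 4 probe sets, all tested. At 72 h a pair of them had negative differences and a pair positive ones. On 1460700_at the arrays read 559, 540.3 and 583 with Antagomir-31, against 617, 669.7 and 633 with Antagomir-SCR. The groups did not overlap, and the log2 difference was -0.19 (SE 0.052). On 1426587_a_at they read 532, 569 and 626 with Antagomir-31, against 626, 615 and 626 with Antagomir-SCR, which overlapped (-0.12, SE 0.07). The positive differences were small. On 1424272_at the arrays read 47.6, 49.2 and 46.9 with Antagomir-31, against 44.3, 47.5 and 45.4 with Antagomir-SCR (0.07, SE 0.049), and on 1459961_a_at 34.1, 37.3 and 37.1 with Antagomir-31, against 34.6, 35.4 and 34.1 with Antagomir-SCR (0.06, SE 0.058). Both overlapped.

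The largest early difference of any of the 11 probe sets was that of Stat3 1459961_a_at at 36 h. It read 41.8 and 38.9 with Antagomir-31, against 29.5 and 31.5 with Antagomir-SCR, so that the treatments were well apart. The log2 difference of 0.41 (SE 0.071) had an unadjusted p of 0.000102 in limma, and an adjusted p of 0.268 that did not pass the threshold in the main fit or in any of 21 alternatives (adjusted p 0.246 to 1.0). The other 3 Stat3 probe sets differed by 0.06 to 0.08 at 36 h (limma, adjusted p = 1.0 each). On 1460700_at they were 559 and 579 with Antagomir-31 and 543 and 542 with Antagomir-SCR, again without overlap. At 48 h the 4 differences ran from -0.05 to 0.16 (limma, adjusted p 0.885 to 1.0), the highest being that of 1426587_a_at, with 733 and 761 for Antagomir-31, against 620.3 and 721 for Antagomir-SCR. Different Stat3 probe sets therefore gave different signs at 72 h and 48 h. Time-centred over the 14 arrays, 1460700_at correlated with Lif 1421207_at at r = 0.84 and the other 3 at -0.41 to 0.51. These correlations are a description, since they hold the 72 h treatment difference on which Lif was chosen.

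**Figure D3:**
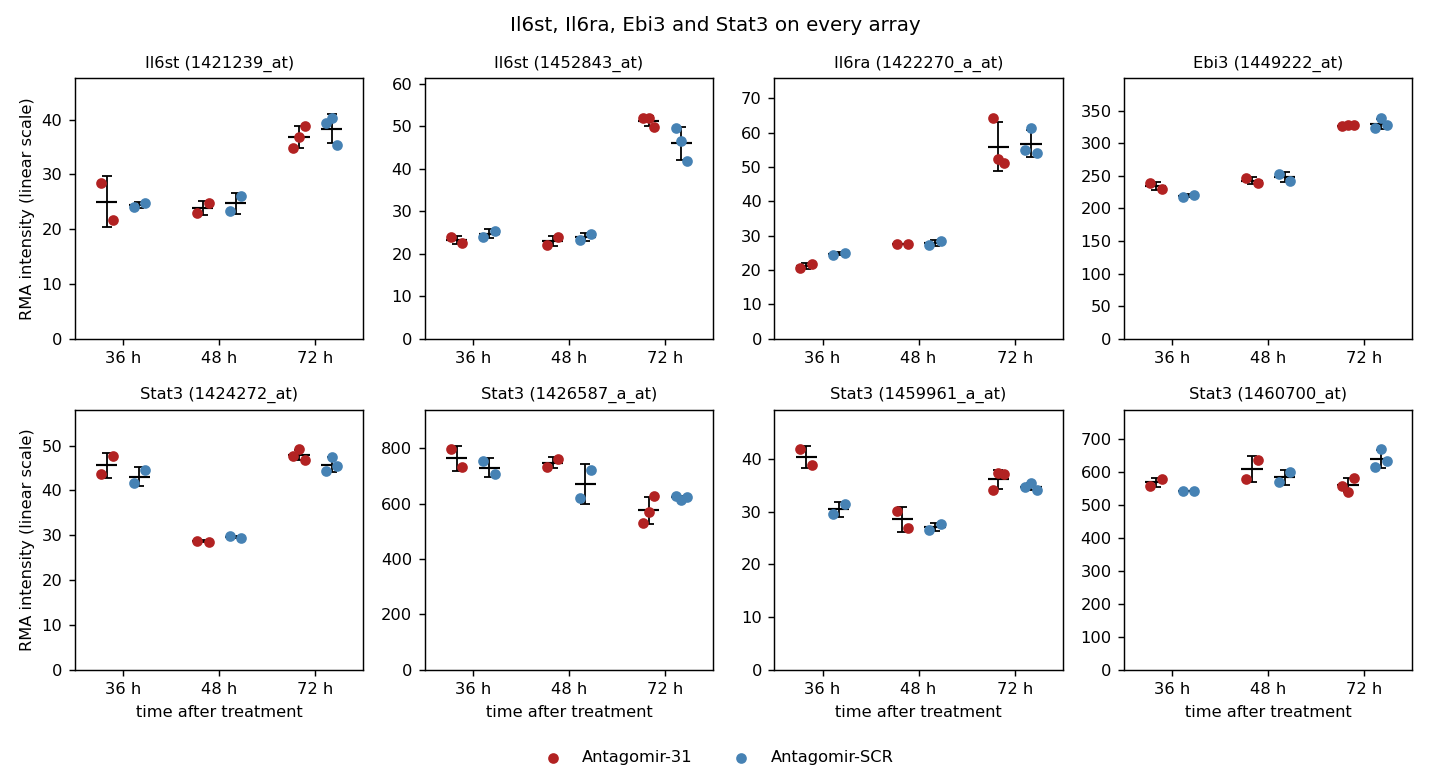
Intensity (linear scale, from 0) of the 8 tested probe sets of Il6st, Il6ra, Ebi3 and Stat3 on each array (points) at 36, 48 and 72 h, Antagomir-31 in red and Antagomir-SCR in blue; horizontal lines are means and bars 1 SD. Stat3 1460700_at lies at 540.3 to 583 with Antagomir-31 and at 617 to 669.7 with Antagomir-SCR at 72 h, and Stat3 1459961_a_at is apart at 36 h.

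Levels at the different times are set side by side without a test, because array medians differed by time (36 h, 23.4 to 23.8; 48 h, 21.8 to 22.1; 72 h, 27.9 to 28.4), so that the times appear to have been normalised separately. The percentile of a probe set within its own array is given as well. Il6st 1452843_at read 22.1 to 25.4 at 36 and 48 h (percentiles 48.6 to 52.7) and 41.8 to 51.9 at 72 h (58.8 to 62.8), over both treatments. Il6ra 1422270_a_at read 20.6 to 25.04 (percentiles 46.6 to 51.99) at 36 h, 27.2 to 28.5 (55.0 to 56.1) at 48 h and 51.3 to 64.3 (62.6 to 66.2) at 72 h. Ebi3 ranged over 218 to 238 at the first time, 239 to 253 at the second and 323 to 339 at the last (percentiles 83.5 to 84.3, 84.7 to 85.3 and 85.3 to 86.0). Osm read 391 to 412, 330.4 to 348 and 317 to 351 (percentiles 89.0 to 89.3, 87.7 to 88.4 and 85.2 to 86.3). Il6st 1452843_at and Il6ra 1422270_a_at were thus higher in rank, and Osm slightly lower, on the 72 h arrays of both treatments. The untested Il6ra 1452416_at was lower in rank at 72 h (percentiles 9.1 to 21.4) than at 36 h (27.8 to 34.7). Il6st 1421239_at and 1437303_at were higher in rank at 72 h than at both earlier times, and Il6st 1460295_s_at was not. Lif 1421207_at was at percentiles 81.2 to 82.4 at 36 h and 80.0 to 81.6 at 48 h, and its 72 h range of 75.7 to 82.5 was wider because the treatments were apart.

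Of the 11 further IL-6 family ligands listed, 6 were read, that is had a probe set named for them alone, and 3 were tested, and none was past the threshold at 36, 48 or 72 h. Il6, the name-giving cytokine, averaged 32.1 ± 0.55 with Antagomir-31 and 38.0 ± 2.34 with Antagomir-SCR at 72 h (SD, n = 3 each), a log2 difference of -0.24 (limma, adjusted p = 0.182). At 36 h it averaged 54.5 with Antagomir-31 and 46.0 with Antagomir-SCR (0.26, limma, adjusted p = 0.934). Clcf1, a ligand of the CNTF receptor, averaged 51.8 with Antagomir-31 and 46.5 with Antagomir-SCR at 72 h (0.15, limma, adjusted p = 0.418), and on the 36 h arrays it averaged 262 with Antagomir-31 and 264 with Antagomir-SCR. Ctf1 (cardiotrophin) averaged 41.7 with Antagomir-31 and 43.5 with Antagomir-SCR at 72 h (-0.06, limma, adjusted p = 0.816). Il12a, the p35 partner of Ebi3, averaged 19.4 with Antagomir-31 and 17.2 with Antagomir-SCR at 72 h, below the median, and was not tested.

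The second receptor chains that LIF and oncostatin M need lay below the array median. Lifr averaged 20.3 with Antagomir-31 and 20.7 with Antagomir-SCR at 72 h, and Osmr 14.5 with Antagomir-31 and 14.02 with Antagomir-SCR. Neither chain was tested. Of 15 receptor chains outside the 6 genes, 12 were read and 9 tested. None passed the threshold at any time, 6 had an unadjusted p under 0.05 at 72 h, beside 16.3% of all probe sets tested, and the median log2 difference at 72 h was -0.14, beside -0.0088 over all probe sets. Here and in the lists below, the genes named are preset partners and those with the smallest unadjusted p at 72 h in limma. The latter are the extremes of their lists and not typical of them. Il10ra, the ligand-binding chain for IL-10, averaged 44.7 with Antagomir-31 and 56.9 with Antagomir-SCR (-0.35, limma, adjusted p = 0.067), and passed in 3 of 22 alternatives. Il12rb2, the signalling chain of the IL-12 receptor, averaged 223 with Antagomir-31 and 278 with Antagomir-SCR (-0.34, limma, adjusted p = 0.213). Il21r averaged 376 with Antagomir-31 and 440.2 with Antagomir-SCR (-0.23, limma, adjusted p = 0.145), and Il10rb 187 with Antagomir-31 and 213 with Antagomir-SCR (-0.19, limma, adjusted p = 0.105). Il27ra, the chain that pairs with gp130 to receive IL-27, averaged 224 with Antagomir-31 and 203 with Antagomir-SCR, with a positive difference (0.14, limma, adjusted p = 0.249).

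Of the JAK kinases, other STATs and adaptors, 15 of 16 were read and 14 tested, and none passed the threshold at any time. Their median log2 difference at 72 h was -0.09, and 5 had an unadjusted p under 0.05, beside 16.3% of all probe sets. The kinases that work with gp130 were close between treatments. Jak1 averaged 873 with Antagomir-31 and 927 with Antagomir-SCR at 72 h (-0.09, limma, adjusted p = 0.569), Jak2 359 with Antagomir-31 and 362 with Antagomir-SCR (-0.01, limma, adjusted p = 0.963) and Tyk2 337 with Antagomir-31 and 342 with Antagomir-SCR (-0.02, limma, adjusted p = 0.869). Jak3, which serves receptors with the common gamma chain, averaged 172 with Antagomir-31 and 206 with Antagomir-SCR (-0.26, limma, adjusted p = 0.104). Stat6 averaged 488 with Antagomir-31 and 546 with Antagomir-SCR (-0.16, limma, adjusted p = 0.186), Stat5b 594 with Antagomir-31 and 658 with Antagomir-SCR (-0.15, limma, adjusted p = 0.272) and Stat2 41.5 with Antagomir-31 and 47.4 with Antagomir-SCR (-0.20, limma, adjusted p = 0.218). At 48 h Stat2 leaned the other way and averaged 24.9 with Antagomir-31 and 17.7 with Antagomir-SCR (0.50, limma, adjusted p = 0.463).

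All 16 inhibitors of gp130 and JAK-STAT signalling were read and tested, and none passed the threshold at any time. The median log2 difference at 72 h was -0.02, and 4 had an unadjusted p under 0.05 in limma, beside 16.3% of all probe sets. Socs3, the feedback inhibitor that docks on gp130 itself, averaged 308 with Antagomir-31 and 306 with Antagomir-SCR at 72 h (0.01, limma, adjusted p = 0.966). Its probe set has a suffix that marks possible cross-hybridisation. At 36 h Socs3 averaged 452 with Antagomir-31 and 392 with Antagomir-SCR (0.21, limma, adjusted p = 0.871), and at 48 h it averaged 354 with Antagomir-31 and 311 with Antagomir-SCR (0.18, limma, adjusted p = 0.802). The Socs3 arrays of the treatments did not overlap at 36 h or 48 h, beside 29.0% and 32.4% of all probe sets tested. Socs1, which inhibits JAK kinases directly, averaged 340.5 with Antagomir-31 and 436 with Antagomir-SCR at 72 h (-0.36, limma, adjusted p = 0.063), without overlap between the arrays, and passed in 4 of 23 alternatives. Pias2 averaged 173 with Antagomir-31 and 194 with Antagomir-SCR (-0.17, limma, adjusted p = 0.087), Pias4 274 with Antagomir-31 and 308 with Antagomir-SCR (-0.17, limma, adjusted p = 0.111), and Socs5 118 with Antagomir-31 and 105 with Antagomir-SCR (0.17, limma, adjusted p = 0.224).

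Of 24 genes listed as STAT3 targets, 23 were read and 22 tested. None passed at 36 or 48 h. At 72 h 1 was higher and 1 was lower, beside 0.289% of all probe sets past the threshold. Like the lists above, this list was set with earlier results of these data known. Its 72 h counts and p-values are therefore a description. Of the 22, 9 had an unadjusted p under 0.05 in limma, beside 16.3% of all probe sets, and the list's median log2 difference was -0.04. Prdm1, the gene of the repressor BLIMP-1, was higher with Antagomir-31, with a mean of 385 ± 1.36 and a range of 384 to 386, against 314 ± 13.6 and 304 to 329 with Antagomir-SCR (SD, n = 3 each). The log2 difference was 0.30 (SE 0.049, limma, adjusted p = 0.038). Il24, a cytokine of the IL-10 family, was lower with Antagomir-31, at 271 ± 25.8 and a range of 245 to 297, against 415 ± 46.5 and 362 to 444 with Antagomir-SCR (-0.61, SE 0.11, limma, adjusted p = 0.044), a difference already known when the list was set. Both calls were lost with some other settings. Prdm1 passed in 8 of 23 alternatives (adjusted p 0.012 to 0.184) and Il24 in 10 of 23 (adjusted p 0.0076 to 0.208), and both missed the threshold, among other settings, when any 72 h array except Antagomir-31 replicate 4 was left out. Timp1, a metalloproteinase inhibitor, averaged 89.8 with Antagomir-31 and 122 with Antagomir-SCR (-0.46, limma, adjusted p = 0.054), and Pim2, a survival kinase, 413 with Antagomir-31 and 493.5 with Antagomir-SCR (-0.26, limma, adjusted p = 0.078).

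**Figure D4:**
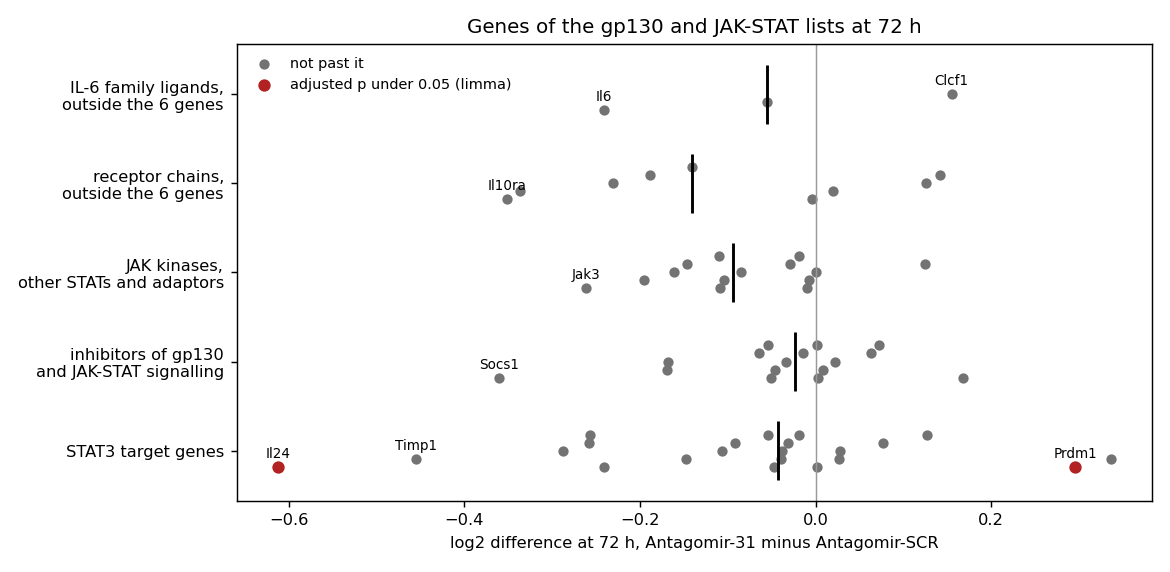
Log2 difference at 72 h, Antagomir-31 minus Antagomir-SCR, of each tested gene (point) in the 5 pathway lists (rows), read on 1 probe set per gene; red points passed the limma threshold, grey points did not, and black bars are list medians. Prdm1 at 0.30 and Il24 at -0.61 are the red points, and the medians lie between -0.14 and -0.02. The lists were chosen with earlier results of these data known.

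The genes whose pattern over the arrays was most like that of Lif 1421207_at were found among 11416 genes by the correlation of log2 values over the 14 arrays after each time point was centred on its mean. It is a description, and it includes the 72 h arrays, on which Lif was chosen. The closest were Scd2 (r = 0.95), a fatty acid desaturase, Mfsd2a (0.93), a lipid transporter, Ncf1 (0.92), a subunit of the phagocyte NADPH oxidase, Bach2 (0.92), a transcriptional repressor, and D10Wsu102e (0.91). At 72 h Scd2 averaged 4215 with Antagomir-31 and 5009.9 with Antagomir-SCR, Ncf1 228 with Antagomir-31 and 338 with Antagomir-SCR. Bach2 averaged 107 with Antagomir-31 and 133 with Antagomir-SCR. The most opposite were 3 granzyme genes, Gzmd (r = -0.95), Gzme (-0.94) and Gzmc (-0.94), followed by Lrrfip1 (-0.93) and the adenosine kinase gene Adk (-0.93). At 72 h Gzmd averaged 1853 on the Antagomir-31 arrays, against 1149 on those of Antagomir-SCR, and Gzme 1321 on the Antagomir-31 arrays, against 758 on those of Antagomir-SCR, on probe sets whose suffix marks possible cross-hybridisation, so that these near-identical granzymes cannot be told apart. The other 5 pathway genes had been left out of the comparison beforehand, so they could not appear among the 10.

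**Figure D5:**
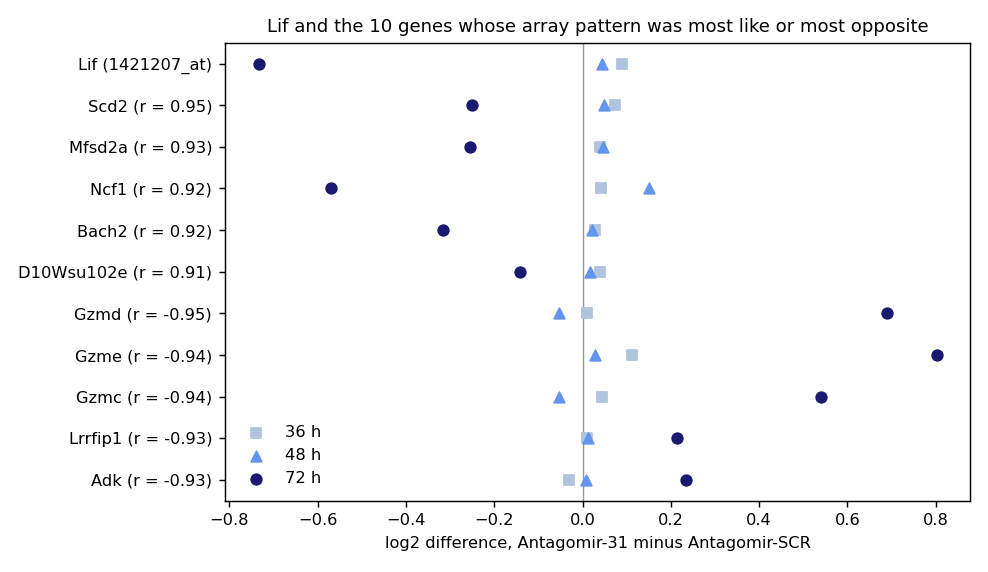
Log2 difference, Antagomir-31 minus Antagomir-SCR, at 36 h (squares), 48 h (triangles) and 72 h (circles) of Lif 1421207_at and of the 5 genes most like and the 5 most opposite to it, with the time-centred correlation r over 14 arrays. The early differences lie between -0.05 and 0.15, and at 72 h they lie between -0.73 for Lif and 0.80 for Gzme.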

How the data were processed

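RNA of 14 samples of Th1 rep cells was hybridised to Affymetrix Mouse 430_2 arrays. The authors normalised the raw signals by RMA in the affy package, and the deposited values are intensities on a linear scale. Values of Antagomir-SCR 72 h replicate 4 carry more decimal places than those of the other arrays. Whether that array was processed differently was not tested. Submitters' notes also name GCOS. The sources used here state neither versions nor a genome build. The platform annotation names 1 gene for 34958 of 45101 probe sets, several for 932 and none for 9211, and it is not tied here to a build.

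Intensities were taken to log2 and fitted in limma 3.58.1 (R 4.3.3) with 6 groups of treatment and time, so that all arrays shared one spread. The 22518 of 45037 non-control probe sets whose mean log2 intensity lay above the median (4.63, an intensity of 24.7) were tested, two-sided, with Benjamini-Hochberg adjustment over all of them at 0.05. For genes in lists, the probe set with the highest mean was read. Named were all member probe sets, and from each list preset partners and the genes with the smallest p at 72 h. The code was tested on simulated data. The members, lists and tests were chosen with earlier results of these data known. Replicate numbers were not used to pair the arrays in the main fit. Motifs were searched in RefSeq promoters (GRCm38.p6).

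Alternatives were no filter, a mean log2 intensity of at least 6, genes in place of probe sets, quantile normalisation, median centring, a variance trend, separate fits per time, a replicate block, no cross-hybridising probe sets, and each array left out.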

Additional observations from a re-analysis of the deposited data

How the results depend on the processing

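The 72 h log2 difference of Lif 1421207_at was -0.71 with quantile normalisation and -0.75 with median centring. It ranged from -0.78 to -0.70 when 72 h arrays were left out in turn. The rest of the 23 alternatives could not alter this difference, so its sign in them shows nothing further. The 72 h log2 difference of Lif 1450160_at ranged from -0.43 to -0.21 with 72 h arrays left out. No tested probe set of the 6 genes passed at 36 h or 48 h under any setting run (limma; 2 and 0 had an unadjusted p under 0.05 in the main setting). The count over all genes was far less stable. At 72 h the 65 probe sets became 14 with no filter on low values, 439 with a mean log2 intensity of at least 6, 115 with genes in place of probe sets, 580 with a variance trend and 5 in a fit of the 72 h arrays alone, and 3 to 406 with single arrays left out, the 406 without Antagomir-31 replicate 4 and the 3 without Antagomir-31 replicate 2 or Antagomir-SCR replicate 3. The cause was not tested. At 36 h the count of 0 became 1 with a mean of at least 6, and 0 to 2 with arrays left out. At 48 h it became 0 to 25, the 25 without Antagomir-SCR replicate 2. Tested against the treatment effect at 36 h, that at 72 h differed in 0 probe sets, 5 with a mean of at least 6, 2 with genes, 17 with a variance trend and 0 to 23 with arrays left out. Against 48 h it differed in 0, in 7, 4 and 16 under the same settings, and in 0 to 5 with arrays left out.

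With replicate number as a block the 72 h count was 8, and no call of the 6 genes changed. Deviations of same-numbered arrays from their group means correlated at 0.098 at 36 h, -0.15 at 48 h and -0.00055 to 0.13 at 72 h. These values are small and do not settle whether equal numbers mark pairs. Crossing the numbers at 48 h, an alternative chosen after seeing the data, gave 0 calls there.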
